A study of Mus musculus with 4 samples.

Results

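C1q-high macrophages that carried transcripts of Trem2, Mmp12 or Gpnmb were examined in 4 single-cell libraries of lung leukocytes from tumour-bearing mice. A barcode, the tag that stands for 1 cell, was kept when it had at least 200 genes and at most 10% mitochondrial UMIs. UMIs are unique molecular identifiers, and each stands for a single RNA molecule that was captured. Members had at least 10 UMIs of C1qa, C1qb and C1qc together, at least 3 of Trem2, Mmp12 and Gpnmb together, at most 2 of the alveolar macrophage genes Plet1, Ear1 and Slc7a2 together, and 0 of the T cell genes Cd3e, Cd3d and Cd3g and the B cell gene Cd79a. These limits kept 226 of 9256 kept barcodes. The rule chose the members by these measured genes. Levels of these genes, and any contrast of levels between the members and other cells, are therefore given as descriptions without a test. Against other cells, a test is used only for the change between the groups of libraries.

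All mice were of the Balb/c strain and received 4T1 cells, a mouse mammary carcinoma line, into the blood, from where the line seeds the lung. The injected cells were either 4T1 wild type (2 libraries labelled WT) or 4T1 with knockout of PD-L1, which engages the inhibitory receptor PD-1 (2 libraries labelled PD-L1 KO). No group without tumour cells was analysed here, and PD-L1 was targeted in the injected cells, not in the mice. Perfused lungs were taken 14 days after injection, digested, and enriched for cells with the leukocyte marker CD45 on magnetic beads. The titles and the injected line agree in every sample label, but the deposited file names carry the opposite condition, so each direction given here rests on the labels, and a WT or PD-L1 KO library always means the library so labelled. The labels name neither the ages nor the number of mice behind a library, so the spread that the p-values use may be technical. The stated interest of the study is type I interferon in myeloid cells and the recruitment of cytotoxic T cells.

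C1q is the recognition molecule of the classical complement pathway, and its chains are made by macrophages of many tissues. TREM2 is a lipid-sensing receptor of macrophages and microglia, MMP12 is a macrophage elastase, and GPNMB is a membrane glycoprotein of lysosome-rich, lipid-loaded macrophages. Macrophages with C1q and TREM2 are common in tumours, where related states express the T cell chemokine CXCL9 or lipid-handling genes such as Fabp5 and Spp1.

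Library WT 1 gave 50 members, library WT 2 41, library PD-L1 KO 1 69 and library PD-L1 KO 2 66. In the same order, which is used for every run of 4 values below, the members had a median of 12520, 7343, 13430 and 10328 UMIs, and their summed UMIs were 796273, 335058, 997024 and 884521. The libraries held 2370 to 2736 barcodes and 17618220 to 19635983 UMIs. No pair of libraries had more than 3 barcodes in common, and among members none did (0). Scrublet, a doublet caller, marked 216 of 10382 barcodes and 1 member. The number to mark was set beforehand, at 0.8% per 1000 barcodes. None of the 35 members with markers of other lineages, described below, was marked, so the count does not show that mixed barcodes were few. Library WT 2 stood apart from the other libraries in makeup, as described below, and results that rest on it are given with and without it.

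Every C1q chain was abundant in the members of all 4 libraries. C1qa (ENSMUSG00000036887, chromosome 4, 136895917 to 136898803, mm10) was at 4446, 6847, 5415 and 5435 CPM, UMIs of the gene per 1000000 summed member UMIs. The pan-macrophage genes Cd68 (627, 561, 537 and 806 CPM) and Csf1r (468, 1068, 491 and 519 CPM) were present as well. Ear1, which the rule limited, was at 0 in every library. Marco, a scavenger receptor of alveolar macrophages that the rule did not use, was at 1.26, 0, 0 and 0 CPM. It was low in alveolar macrophages too, at 11.5, 11.5, 19.1 and 43.1 CPM. Ear2 and Chil3, alveolar genes outside the rule, were present in members at 13.8 to 38.8 and 7.02 to 69.0 CPM. In alveolar macrophages Ear2 was at 1289 to 1422 CPM and Chil3 at 2181 to 3464 CPM.

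The 3 genes of the second limit were seldom found together. Trem2 (ENSMUSG00000023992, chromosome 17, 48346401 to 48354147) gave at least 1 UMI in 191 of 226 members. Mmp12 (ENSMUSG00000049723, chromosome 9, 7344381 to 7369499) did so in 103, and Gpnmb (ENSMUSG00000029816, chromosome 6, 49036546 to 49070929) in 23. Trem2 alone was found in 109 members, Mmp12 alone in 35, Trem2 with Mmp12 but no Gpnmb in 59, and all 3 in 9. The name of a single Trem2 Mmp12 macrophage therefore describes a minority of the members, and they are called C1q-high macrophages here.

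Gpnmb UMIs were found in 7, 0, 7 and 9 members. With 0 of 41 cells in library WT 2, a share of cells with a UMI of up to 7.32% is allowed, counting error only. In T cells, which should lack the gene, the share with a Gpnmb UMI after thinning every cell to 3000 UMIs was 1.97%, 0.542%, 2.85% and 3.38%, against 10.6%, 0%, 7.35% and 12.3% in members. Before thinning the shares were 3.86%, 2.83%, 5.08% and 7.13% in T cells, at median depths of 5448, 5752, 6071 and 8360 UMIs, and 14%, 0%, 10.1% and 13.6% in members. The thinned T cells had a C1qa UMI in 20.4%, 14.1%, 21.4% and 27.5% of cells, so they are not free of macrophage transcripts. Gpnmb is a gene of the rule, so these shares of Gpnmb describe the members and are no test of background.

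At the edge of the rule, 36 members had exactly 3 UMIs of Trem2, Mmp12 and Gpnmb and 39 barcodes with 2 UMIs were left out. Their summed levels were 241 and 171 CPM for Trem2, 88.5 and 44.2 for Mmp12, 751 and 1455 for Cxcl9, 107 and 88.3 for Fabp5, 519 and 163 for Spp1, and 623 and 367 for Mrc1. Gpnmb was at 0 on both sides. The limit on C1q cut through almost no cells, with 1 member at 10 to 12 UMIs and 2 barcodes at 7 to 9.

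Far more barcodes were left out for lymphocyte transcripts. In all 177 barcodes (48, 24, 47 and 58) met every other limit but held a UMI of Cd3e, Cd3d, Cd3g or Cd79a. Of these, 17 held a single such UMI, 151 had Cd3 transcripts and 89 had Cd79a. Their median depth was 23529, 15909, 25064 and 22515 UMIs, above that of the members in every library.

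The members fell into 8 sub-clusters when grouped by their own variable genes. These groups were made from the same cells and genes, so their leading genes are a description. Sub-cluster 1 (58 cells) was led by Ramp1, a receptor activity-modifying protein, with the chemokine genes Ccl4 and Ccl3 and the lectin gene Mgl2. It held more MHC class II RNA than any other sub-cluster, with 33103 CPM of Cd74, the MHC class II invariant chain, and 993 CPM of Mmp12. Ccl4 and Ccl3 were found in 53.4% and 60.3% of its cells, against 54.2% and 52.4% of the other members. Sub-cluster 2 (40 cells) was led by Folr2, Pf4, F13a1, Stab1, Mrc1 and Selenop, genes of resident scavenging macrophages. It had 621 CPM of Trem2 and 28300 CPM of Apoe, but only 20.03 CPM of Mmp12 and 0 CPM of Cxcl9 and Spp1.

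Sub-cluster 3 (35 cells) was led by Plac8, Fn1, Ifitm3 and Ms4a4c, with Ccr2, the monocyte chemokine receptor, at 487 CPM against 201 CPM in the other members. Arg1, the arginine-degrading enzyme, was at 599 CPM there and at 0 to 121 CPM in the other sub-clusters. Sub-cluster 4 (29 cells) was led by Hmox1, the haem-degrading enzyme, Cxcl9 and Serpina3g. Cxcl9 reached 2991 CPM there and Cxcl10 554 CPM, each its highest level of the 8 groups. Fabp5, a fatty acid binding protein, was at 3321 CPM there. Hmox1 was found in 51.7% of the cells of sub-cluster 4, against 44.7% of the other members, and Cxcl9 in 75.9% against 23.4%.

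Sub-cluster 5 (28 cells) was led by Gpnmb, Fabp5, Ctsd, Syngr1 and Lgals3. Gpnmb was at 1031 CPM there and at 0 to 4.93 CPM in every other sub-cluster. Fabp5 (7025 CPM), the lysosomal protease gene Ctsd (8051 CPM), the lipid droplet coat gene Plin2 (1258 CPM) and Spp1, the gene of osteopontin (3892 CPM), were likewise at their highest there. Cxcl9 was at 47.3 CPM. C1qa was at 2684 CPM, lower than in any other sub-cluster but number 8. Sub-cluster 6 (19 cells) was led by the cell cycle genes Top2a, Mki67 and Birc5.

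The last groups were led by genes of other lineages. Sub-cluster 7 (12 cells) was led by the neutrophil genes S100a9 (33231 CPM) and S100a8 (22355 CPM). Sub-cluster 8 (5 cells) was led by the endothelial genes Epas1, Cldn5 and Egfl7, at a median of 40212 UMIs per cell. In all, 35 members (7, 5, 10 and 13) held at least 10 UMIs of neutrophil, 5 of endothelial or 10 of epithelial markers. In sub-clusters 1 to 8 these numbered 0, 4, 8, 0, 5, 1, 12 and 5, so they were not confined to the last groups. S100a8 was at 1954 CPM in sub-cluster 3 and at 1570 CPM in sub-cluster 5. None of the sub-clusters is given a cell type name.

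**Figure D1:**
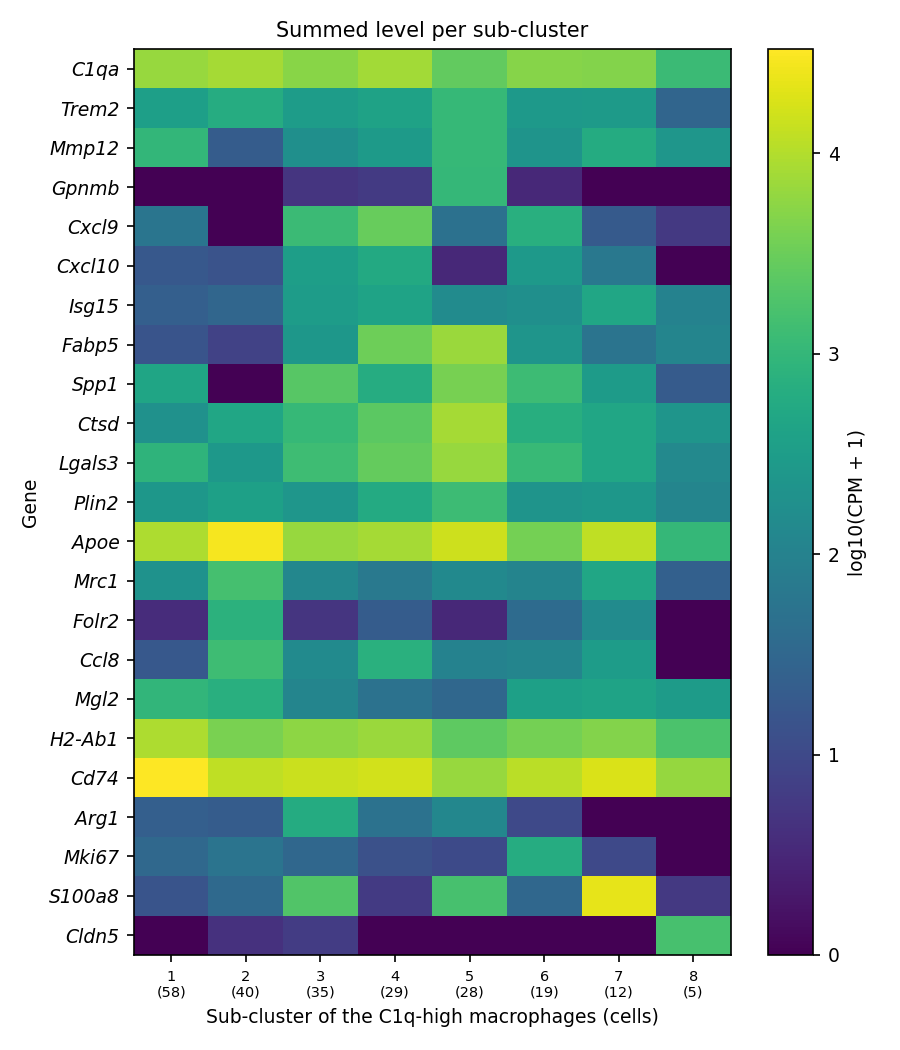
Summed level of 23 genes (rows) in each of the 8 sub-clusters of the members (columns, with their number of cells), as log10 of CPM plus 1. Gpnmb stood out in sub-cluster 5 (1031 CPM), Cxcl9 in sub-cluster 4 (2991 CPM) and Folr2 in sub-cluster 2 (808 CPM).

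High Gpnmb was rarer in the members than high Cxcl9. At least 3 UMIs of Cxcl9 were found in 48 members (14, 2, 14 and 18) and at least 3 of Gpnmb in 15 (5, 0, 4 and 6), with 1 member in both sets. Whether that overlap is smaller than the sizes of the sets would give was not tested. All 15 of the Gpnmb set also had at least 3 UMIs of Fabp5, as did 24 of the 48 in the Cxcl9 set. Of the 85 members with at least 3 UMIs of the mannose receptor gene Mrc1, 13 were in the Cxcl9 set and 3 in the Gpnmb set. Over all members, at least 3 UMIs of Fabp5 were found in 27.9%, of Cxcl9 in 21.2% and of Gpnmb in 6.64%.

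This makeup differed between the libraries of 1 group. Sub-cluster 1 held 11, 18, 16 and 13 cells and sub-cluster 2 held 5, 16, 10 and 9, which together made up most members of library WT 2. Sub-cluster 3 held 8, 3, 13 and 11 cells. Sub-clusters 4 and 5 held 8, 0, 10 and 11 and 8, 0, 9 and 11 cells. Library WT 1 and both PD-L1 KO libraries had cells in each of sub-clusters 1 to 7, and library WT 2 had none in sub-clusters 4 and 5.

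**Figure D2:**
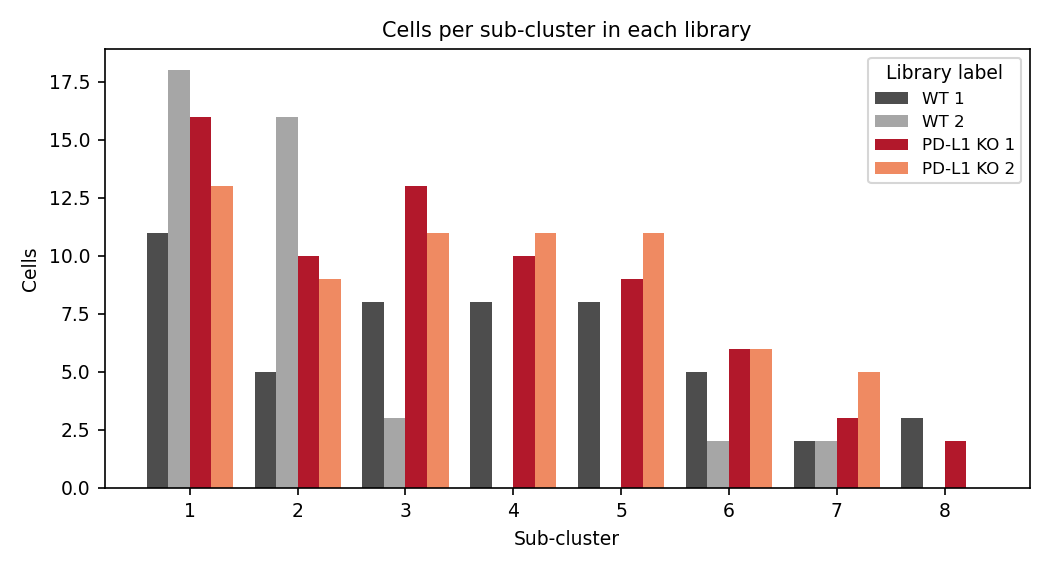
Number of members (y axis) in each sub-cluster (x axis), with 1 bar for each of the 4 libraries. Library WT 2 had 0 cells in sub-clusters 4 and 5, where the other libraries had 8 to 11.

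The members made up a larger share of kept barcodes in both PD-L1 KO libraries. The share was 1.99% (95% exact Clopper-Pearson interval 1.48 to 2.62) in library WT 1 and 1.70% (1.22 to 2.30) in library WT 2. It was 3.04% (2.37 to 3.83) and 3.20% (2.48 to 4.05) in the PD-L1 KO libraries. The groups did not overlap, with means of 1.85% ± 0.209 (SD, n = 2) and 3.12% ± 0.114 (SD, n = 2) and a difference of 1.27 percentage points. An exact permutation test, two-sided, gave p = 0.333, the smallest that 2 libraries against 2 allow. The intervals cover counting error only.

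Without the members that carried RNA of other lineages, the difference was 0.982 points, and with cells thinned to 3000 UMIs before the rule it was 0.950 points. Without sub-clusters 4 and 5, which hold no cell of library WT 2, the shares were 1.36%, 1.70%, 2.20% and 2.13%, and the difference was 0.642 points, still without overlap of the groups. With T and B cell transcripts allowed, the shares were 3.91%, 2.69%, 5.11% and 6.01%, and again the groups did not overlap. Another base was the members plus 203 cells that met the other limits with at most 2 UMIs of Trem2, Mmp12 and Gpnmb. Of this base the members took 49.0%, 56.2%, 51.1% and 55.5%. The groups overlapped there, and an exact permutation test gave p = 1.

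**Figure D3:**
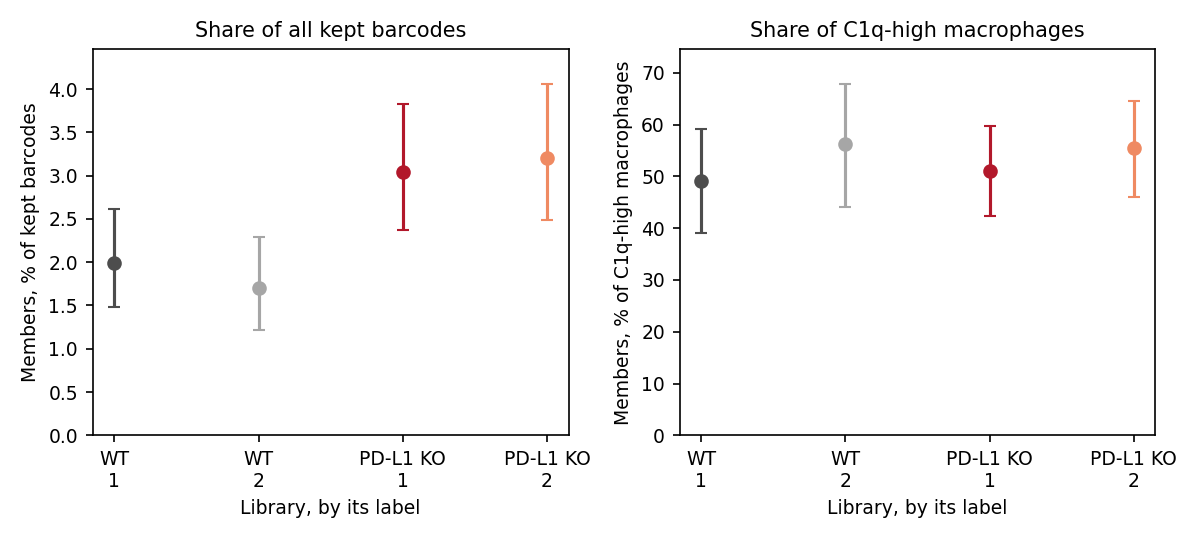
Share of members in each library, in percent, with bars for the 95% exact binomial interval. The base is all kept barcodes (left) or the members plus the 203 cells low in Trem2, Mmp12 and Gpnmb (right). The right panel labels that base C1q-high macrophages. On the left both PD-L1 KO libraries lay above 3% and both WT libraries below 2%, and on the right the libraries overlapped.

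UMIs were then summed over the members of each library and tested with edgeR's quasi-likelihood test, PD-L1 KO against WT libraries. Of 7868 genes tested, 0 passed a Benjamini-Hochberg adjusted p of 0.05 (0% of the tested genes). DESeq2 also called 0. At an unadjusted p under 0.05 edgeR had 189 genes, 2.40% of those tested, with 94 higher (1.19%) and 95 lower (1.21%), and DESeq2 had 46. The differences below are therefore measurements that did not pass the test. Every gene named in this comparison had an adjusted p of 1.00 when rounded. A positive log2 difference means a higher level in the PD-L1 KO libraries, and each is given with its standard error (SE).

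Of the 10 genes with the smallest unadjusted p on the higher side, 3 were on the type I interferon list. Isg15, which encodes a ubiquitin-like antiviral modifier (ENSMUSG00000035692, chromosome 4, 156199424 to 156200818), was at 132, 149, 240 and 282 CPM. Both PD-L1 KO libraries exceeded both WT libraries, with a log2 difference of 0.92 (SE 0.22), and of 1.01 without library WT 2. Zbp1, a sensor of Z-form nucleic acid, was at 84.1, 59.7, 144 and 161 CPM, a log2 difference of 1.08 (SE 0.26). Rtp4, an interferon-induced chaperone of receptors, was at 54.0, 41.8, 103 and 92.7 CPM and differed by 1.03 (SE 0.27).

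The groups did not overlap for these genes, nor for Rsad2, Bst2, Oasl2 and Ifit2. The latter were named after their values were seen, so this is a description and no further support. The share of the whole list without overlap is given below. Rsad2, the gene of the antiviral enzyme viperin (ENSMUSG00000020641, chromosome 12, 26442746 to 26456452), was at 10.0, 29.8, 45.1 and 89.3 CPM, from 8, 10, 45 and 79 UMIs. Its log2 difference was 1.96 (SE 0.60). Bst2, which encodes the virion-tethering protein tetherin, was at 195, 158, 272 and 292 CPM and differed by 0.69 (SE 0.22). Oasl2, of the oligoadenylate synthetase-like family, was at 27.6, 35.8, 72.2 and 50.9 CPM and differed by 1.01 (SE 0.33). Ifit2 was at 13.8, 26.9, 44.1 and 43.0 CPM and differed by 1.23 (SE 0.39).

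Over the type I interferon list, 51 of 56 tested genes had a positive log2 difference, against 49.4% of all tested genes. Both PD-L1 KO libraries exceeded both WT libraries for 28 of the 56 and lay below them for 0, against 14.7% and 17.6% of all tested genes. The list's median log2 difference was 0.47, against 0.00 over all genes. Of its members, 11 had an unadjusted p under 0.05, all on the higher side, and 0 passed the adjusted threshold. The 5 genes with a negative value were Slfn4, Ly6a, Stat2, Slfn9 and Samhd1. The most abundant genes of the list had log2 differences of 0.33 (SE 0.28) for Ifi27l2a and 0.27 (SE 0.40) for Ifitm3. The interferon-gamma list of GTPases and transcription factors had a median of 0.27 (16 of 20 higher), but its direction did not hold. The median was 0.06 (11 of 21) without library WT 2, -0.03 (9 of 20) without library PD-L1 KO 1, 0.04 (11 of 19) with the stricter rule of 20 C1q UMIs and 6 of the other genes, and -0.34 (1 of 3) in thinned members. Irf8, a transcription factor gene, was at 283, 334, 360 and 371 CPM, and Ciita, the gene of the MHC class II transactivator, lay the other way at 134, 188, 125 and 121 CPM.

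Levels of the list differed between sub-clusters as well. Summed over the list, sub-cluster 3 held 10606 CPM, sub-cluster 4 held 9565 CPM and sub-cluster 1 held 4326 CPM. Within sub-cluster 1 the sum was 3386, 3619, 5524 and 4740 CPM, so that both PD-L1 KO libraries exceeded both WT libraries. Within sub-cluster 3 it was 11181, 10918, 10606 and 10039 CPM, with both below. The median log2 difference of the list was 0.51 without library WT 2, and 0.35 (45 of 52 tested genes positive) when the members of sub-clusters 4 and 5 were left out of every library. With the carriers of other lineages left out it was 0.66.

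Promoter sequence upstream of the start is printed for 3 interferon-response genes and for Cxcl9, because these carry the interferon and chemokine comparison. The sequences are from RefSeq on build GRCm38.p6, run 5′ to 3′ along the gene's own strand and end at the base before the annotated start. Capitals mark each match to GAAA, any 2 bases and GAAA again, the core of the interferon-stimulated response element, searched on both strands (on the other strand it reads TTTC, any 2 bases, TTTC). All 4 genes lie on the minus strand, at chr4:156200819-156200938 for Isg15, chr12:26456453-26456582 for Rsad2, chr5:92348890-92349112 for Cxcl10 and chr5:92328080-92328199 for Cxcl9.
Isg15: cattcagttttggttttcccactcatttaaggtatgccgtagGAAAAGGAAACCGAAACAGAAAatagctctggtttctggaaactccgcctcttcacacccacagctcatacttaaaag
Rsad2: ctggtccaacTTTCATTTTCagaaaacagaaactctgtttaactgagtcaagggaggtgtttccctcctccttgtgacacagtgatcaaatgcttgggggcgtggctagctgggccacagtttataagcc
Cxcl10: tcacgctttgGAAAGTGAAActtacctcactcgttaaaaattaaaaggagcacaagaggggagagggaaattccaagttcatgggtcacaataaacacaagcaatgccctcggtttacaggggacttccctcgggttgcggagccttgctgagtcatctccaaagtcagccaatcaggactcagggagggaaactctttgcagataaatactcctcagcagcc
Cxcl9: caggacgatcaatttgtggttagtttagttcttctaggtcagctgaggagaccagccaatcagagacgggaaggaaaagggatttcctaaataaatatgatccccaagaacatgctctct

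The search covered the 250 bases before each start. In these Isg15 held 3 matches that overlap one another, Rsad2 and Cxcl10 held 1 each, and Cxcl9 held none. Each printed stretch begins 120 bases before the start, or 10 bases before the match where that lies farther out. Over the same 250 bases 22 of the 49 interferon-list genes with an entry held the motif (44.9%). The share was 3.46% of all 27025 genes with an entry and 3.67% of the 6267 with an entry that were tested in the members. A match is a description of the letters, not evidence of binding.

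The T cell recruiting chemokines showed no common direction. Cxcl9 (ENSMUSG00000029417, chromosome 5, 92321347 to 92328079), which encodes a ligand of CXCR3, a chemokine receptor of T cells, was at 996, 230, 844 and 876 CPM, and only library WT 2 was low. Its log2 difference was 0.50 (SE 0.59), and -0.18 without library WT 2. A Cxcl9 UMI was found in 18, 3, 22 and 25 members, and after thinning in 23.4%, 5.26%, 19.1% and 27.7%, against 6.13%, 1.45%, 9.30% and 12.1% of T cells, which should lack it. Members lay above T cells in each library, with 38 thinned members in library WT 2. A C1qa UMI was found in 20.4%, 14.1%, 21.4% and 27.5% of the thinned T cells, so these T cells are no clean background.

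Cxcl10, another CXCR3 ligand, was at 235, 310, 219 and 133 CPM, a log2 difference of -0.60 (SE 0.30). Both PD-L1 KO libraries lay below both WT libraries, but 104 of the 187 UMIs of library WT 1 and 102 of the 104 UMIs of library WT 2 came from 1 cell each. In the PD-L1 KO libraries the highest cell held 83 of 218 and 30 of 118 UMIs. Cells with a Cxcl10 UMI numbered 11, 2, 15 and 18. With T and B cell transcripts allowed the log2 difference was 0.27. Ccl5, a chemokine that attracts T cells, was at 345, 173, 120 and 135 CPM (log2 difference -1.02, SE 0.35), and its difference was 0.06 under the same change. Cxcl16, the ligand of CXCR6, was at 590, 549, 604 and 736 CPM. The list had 3 of 6 tested genes higher.

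Genes of lipid handling and of the lysosome were low in library WT 2. Fabp5 (ENSMUSG00000027533, chromosome 3, 10012548 to 10016607) was at 1722, 83.6, 1234 and 2279 CPM, a log2 difference of 0.97 (SE 1.09). Lgals3, the gene of galectin-3, was at 2016, 543, 1597 and 2908 CPM and differed by 0.84 (SE 0.60). Ctsd, the gene of cathepsin D, was at 1901, 683, 1612 and 2791 CPM and differed by 0.79 (SE 0.50). For these genes library WT 1 lay between the PD-L1 KO libraries, and without library WT 2 the log2 differences of Fabp5, Lgals3 and Ctsd were 0.06, 0.19 and 0.25.

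Spp1 had values of 2669, 182, 397 and 1974 CPM, with 804 of the 2125 UMIs of library WT 1 in 1 cell, and its log2 difference of -0.24 (SE 1.17) ranged from -1.83 to 2.73 when single libraries were left out. Apoe, the lipid carrier, went the other way between the WT libraries, at 8093, 15800, 10528 and 8583 CPM. In the lipid-associated list 17 of 26 tested genes were higher, with a median of 0.22 (0.17 without library WT 2). That direction was lost without library PD-L1 KO 2 (13 of 26, median -0.03) and without sub-clusters 4 and 5 (9 of 23, median -0.07). In the list of cathepsins and lysosomal genes 24 of 26 were higher, against 49.4% of all tested genes, and the median was 0.33. Both PD-L1 KO libraries lay above both WT libraries for 11 of the 26, against 14.7% of all tested genes. That median was 0.25 without library WT 2, 0.09 (18 of 26) without library PD-L1 KO 2, and 0.10 without sub-clusters 4 and 5.

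Resident macrophage and scavenger receptor genes were high in library WT 2. Mrc1, the mannose receptor gene, was at 229, 675, 228 and 217 CPM (log2 difference -0.98, SE 0.49). Folr2, a folate receptor gene, was at 75.4, 275, 53.2 and 93.8 CPM, and Stab1, the gene of the scavenger receptor stabilin-1, was at 133, 469, 100 and 145 CPM. Without library WT 2 the log2 differences of Mrc1, Folr2 and Stab1 were -0.01, -0.01 and -0.09. Of 18 tested genes of the list, 17 had a negative value and Msr1 alone a positive one, with a list median of -0.87. Without library WT 2 the median was 0.21, with 10 of 18 positive.

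The list of heat shock and immediate early genes behaved the same way. Its median was -0.52 with 3 of 18 higher, and 0.04 without library WT 2. Fos, an immediate early transcription factor gene, was at 2355, 4501, 2611 and 1942 CPM.

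Genes of glycolysis were low in library WT 2 too. All 20 tested genes of the list had a positive value, with a median of 0.44. For 6 of the 20 both PD-L1 KO libraries exceeded both WT libraries, against 14.7% of all tested genes. Without library WT 2, 16 of 20 were positive with a median of 0.10. Bnip3, a hypoxia-induced mitophagy gene, was among the 10 smallest unadjusted p-values on the higher side, at 11.3, 17.9, 32.1 and 39.6 CPM. Gapdh was at 1721, 818, 1628 and 1860 CPM.

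**Figure D4:**
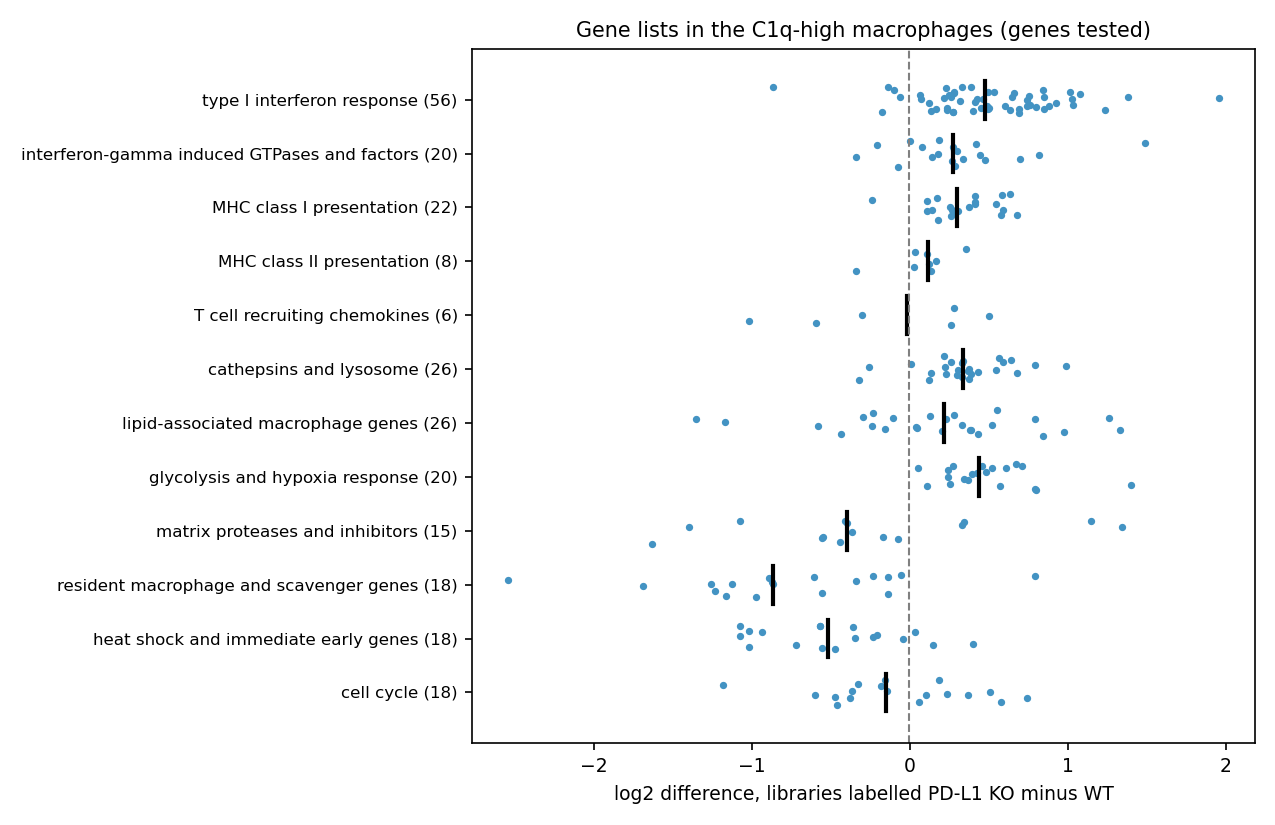
Log2 difference of each tested gene (points, PD-L1 KO libraries minus WT, x axis) in 12 gene lists, with the number tested in brackets, the list median as a black bar and the median of all 7868 genes as a dashed line. The interferon list had 51 of 56 points above 0, and the resident macrophage list 1 of 18.

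Antigen presentation genes were abundant in the members of all 4 libraries. H2-Ab1, a class II chain, was at 4609, 4936, 5662 and 4852 CPM (log2 difference 0.16, SE 0.16). The class II list had a median of 0.11 (7 of 8 higher), which turned to -0.14 (1 of 8) with the stricter rule and to -0.02 (4 of 8) without library PD-L1 KO 1. In the class I list 21 of 22 tested genes were higher with a median of 0.29, and both PD-L1 KO libraries exceeded both WT libraries for 12, against 14.7% of all tested genes. Without library WT 2 the median was 0.15, with 17 of 22 higher. B2m, the light chain of class I molecules, was at 1698, 1528, 2005 and 1817 CPM. H2-T23, a nonclassical class I gene, was at 180, 179, 308 and 239 CPM and differed by 0.63 (SE 0.22).

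Plau and Mmp14, genes of matrix breakdown, had higher values in both PD-L1 KO libraries. Plau, the gene of the plasminogen activator urokinase, was at 23.9, 14.9, 58.2 and 44.1 CPM (1.34, SE 0.35), from 5 to 58 UMIs per library. The membrane metalloprotease gene Mmp14 was at 85.4, 32.8, 126 and 148 CPM (1.15, SE 0.41). The groups did not overlap for either gene, but Mmp14 was named after its values were seen. On the whole list both PD-L1 KO libraries lay above both WT libraries for 2 of 15 tested genes and below for 2. The shares of all tested genes were 14.7% and 17.6%. The list of matrix proteases and inhibitors as a whole had 4 of 15 tested genes higher and a median of -0.40. The median turned to 0.31 (8 of 15) without library WT 1, to 0.07 (8 of 15) without library WT 2 and to 0.47 (7 of 11) at a mitochondrial limit of 5%.

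Genes with small unadjusted p-values on the lower side included S100a4, which encodes a calcium-binding protein of motile cells. It was at 237, 334, 126 and 111 CPM (log2 difference -1.23, SE 0.25). Arg1 was at 266, 221, 146 and 130 CPM, from 7, 7, 3 and 9 cells, with a log2 difference of -0.80 (SE 0.22) that was 0.87 in thinned members. Gzma, a granzyme of cytotoxic lymphocytes, came from 2, 1, 1 and 2 cells, so its log2 difference of -2.96 (SE 0.80) rests on single cells. Summed NK cell markers were at 69.1, 164, 27.1 and 6.78 CPM, with Klra8 at 0. That list includes Gzma, so the sum is no separate observation. The highest cell held 42 of 43, 43 of 43, 19 of 19 and 1 of 2 Gzma UMIs. Markers of nonclassical monocytes also had lower values, with 0 of 6 tested genes higher, a median of -0.96 and sums of 284, 301, 235 and 112 CPM. Both PD-L1 KO libraries lay below both WT libraries for 4 of the 6, against 17.6% of all tested genes, and Adgre4 alone had an unadjusted p under 0.05. Their part in the lower values was not tested. Ecm1 and Hpgd had lower values too, with Ecm1 at 154, 122, 79.2 and 54.3 CPM and Hpgd at 132, 131, 74.2 and 39.6 CPM.

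**Figure D5:**
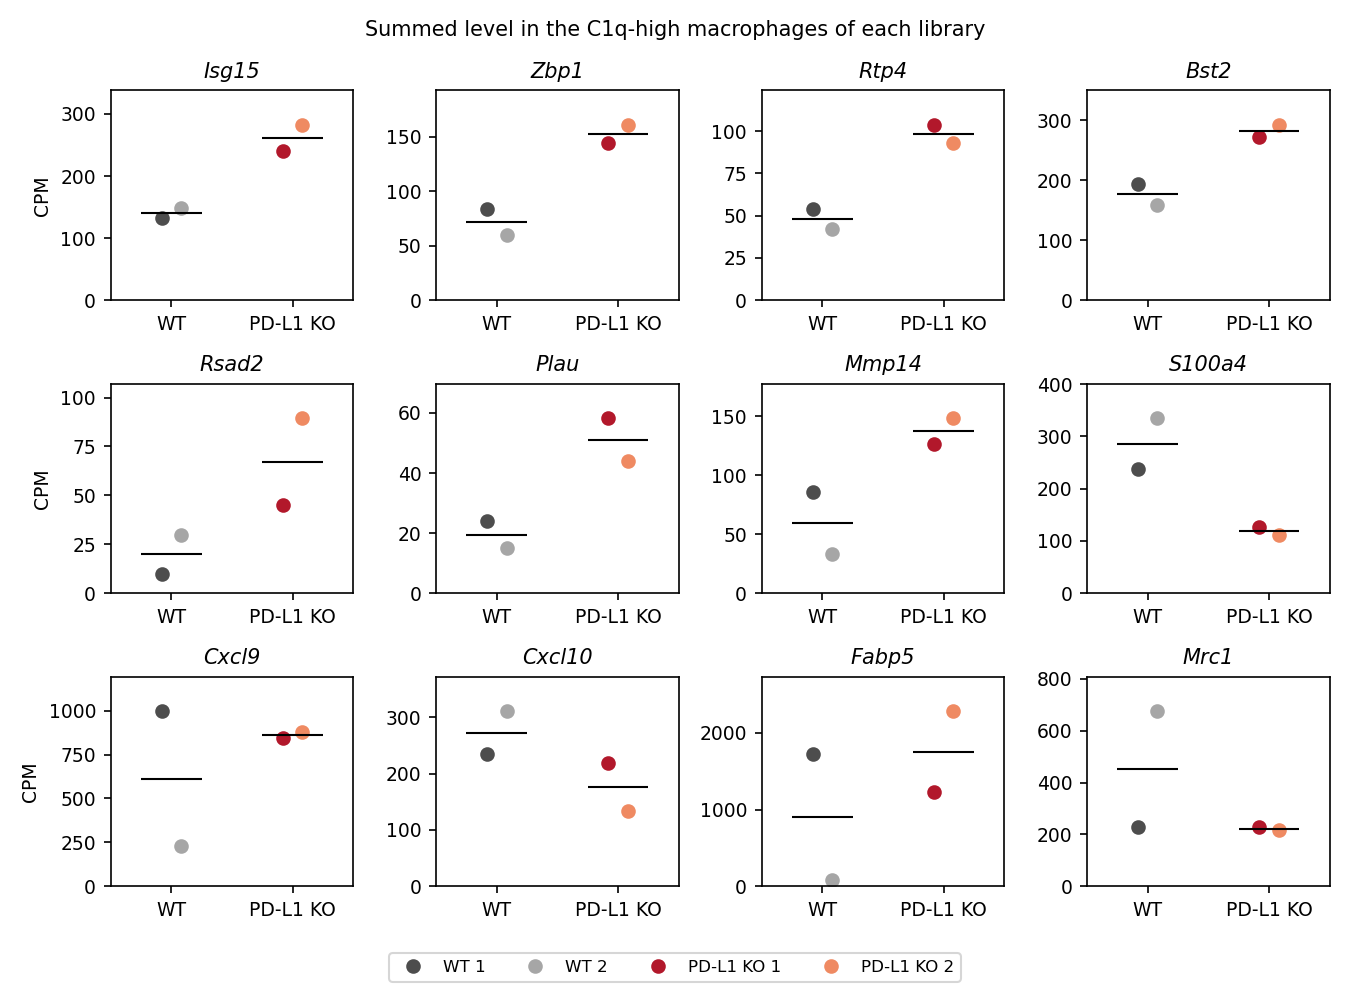
CPM of 12 genes in the summed members of each library, with a point per library and a line at each group's mean, on axes that start at 0. For Isg15, Zbp1, Rtp4, Bst2, Rsad2, Plau, Mmp14 and S100a4 the groups did not overlap, and for Cxcl9, Fabp5 and Mrc1 library WT 2 lay apart from the other 3. Bst2, Rsad2 and Mmp14 were named after their values were seen. Over all tested genes both PD-L1 KO libraries lay above both WT libraries for 14.7% and below for 17.6%.

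Lrg1, a leucine-rich glycoprotein gene, headed the higher side with 26.4, 32.8, 74.2 and 63.3 CPM (log2 difference 1.27, SE 0.30). It was at 647 CPM in sub-cluster 7, with the neutrophil genes, and 31.0 CPM in the other members. Neutrophil markers summed to 1311, 9503, 4598 and 4284 CPM, endothelial markers to 903, 29.8, 755 and 23.7 CPM and epithelial or carcinoma markers to 30.1, 59.7, 2741 and 20.4 CPM. All 8 neutrophil and all 7 endothelial markers were detected in at least 1 library. The part of such RNA in the differences above was not tested. Cd274, the PD-L1 gene of the mouse itself, was at 33.9, 44.8, 59.2 and 31.7 CPM in the members (log2 difference 0.27, SE 0.40), and since the knockout was in the injected cells this value is no check of the labels.

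To see whether these differences were particular to the members, the change between the groups was compared with that in 3 other populations of the same libraries, in a model with the library as a block. The populations were 203 C1q macrophages low in Trem2, Mmp12 and Gpnmb (52, 32, 66 and 53), 1012 alveolar macrophages (343, 198, 219 and 252) and 286 Ly6c2 monocytes (83, 59, 86 and 58). The C1q macrophages low in Trem2 had a median of 5333.5, 5989.5, 7275 and 6103 UMIs, below the members in every library. A Trem2 UMI was found in 42.3%, 62.5%, 47.0% and 37.7% of them. The part of depth in their split from the members was not tested. Against the C1q macrophages low in Trem2, 0 of 7213 genes differed (0% called by edgeR's quasi-likelihood test, 259 at an unadjusted p under 0.05). The count was 159, 33, 4 and 13 on leaving out library WT 1, then WT 2, then PD-L1 KO 1 and then PD-L1 KO 2. Against alveolar macrophages 0 of 10072 differed (353 at an unadjusted p under 0.05), and the counts with a library left out were 74, 7, 0 and 1 in the same order.

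No gene of the interferon list was called as changing differently in the members. The list's median log2 difference was 0.47 in the members and 0.56 in the C1q macrophages low in Trem2 (47 of 52 tested genes positive). It was 1.05 in alveolar macrophages (56 of 57) and 0.23 in monocytes (46 of 57). Gene by gene, the change was higher in members than in these populations for 23 of 56, 15 of 58 and 39 of 59 tested genes of the list. The medians of that difference were -0.12, -0.40 and 0.21, against 0.007, 0.007 and -0.004 over all genes. Whether the list as a whole changed differently was not tested. Isg15 was at 129, 203, 450 and 405 CPM in the C1q macrophages low in Trem2, at 43.0, 31.4, 68.4 and 63.1 CPM in alveolar macrophages and at 324, 326, 407 and 893 CPM in monocytes. For Isg15 both PD-L1 KO libraries exceeded both WT libraries in each of these populations. The change of Isg15 in members differed from theirs by -0.56 (SE 0.35), 0.14 (SE 0.30) and 0.00 (SE 0.53). Rsad2 did not follow, at 17.2, 66.3, 80.1 and 38.1 CPM in the C1q macrophages low in Trem2. It was at 8.54, 9.74, 45.0 and 5.09 CPM in alveolar macrophages and at 66.9, 36.2, 63.7 and 148 CPM in monocytes. For Rsad2 the groups overlapped in each of these populations.

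Cxcl9 was at 906, 446, 2130 and 1279 CPM in the C1q macrophages low in Trem2, and Cxcl10 was at 17.2, 210, 433 and 533 CPM there. The change in Cxcl10 was lower in the members by 3.24 on the log2 scale (SE 0.72, edgeR's quasi-likelihood test, adjusted p = 0.637), which did not pass. It rests on few cells and UMIs. In the members 1 cell held 104 of 187 Cxcl10 UMIs in library WT 1, and 1 cell held 102 of 104 in library WT 2. The C1q macrophages low in Trem2 had 6 Cxcl10 UMIs in library WT 1. In that population both PD-L1 KO libraries exceeded both WT libraries for both chemokines, which was not so in the members.

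Against Ly6c2 monocytes 5 of 8076 genes differed (0.0619%). Spp1 was among them, with a change in the members that was lower by 3.85 on the log2 scale (SE 0.53, adjusted p = 0.00827 by edgeR's quasi-likelihood test). In monocytes Spp1 was at 60.1, 0, 195 and 336 CPM, against 2669, 182, 397 and 1974 CPM in the members. The other 4 were Sftpc, a surfactant gene of lung epithelium, and Mfap4, Fermt2 and Postn, genes of stromal cells. In library PD-L1 KO 1, 2398 of the 2413 Sftpc UMIs of the members came from 1 cell. The count was 39, 13, 21 and 137 with a library left out, in the same order as above, and 13 with the carriers of other lineages left out.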

How the data were processed

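Values in the deposited files are raw UMI counts, whole and not normalized, per the file headers. Per the submitters' processing notes, STAR in Cell Ranger 3.1.0 mapped the reads to mm10. The counting annotation and strand setting are not given in the sources used. The kit reads 3′ ends, so isoforms cannot be separated.

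The members and the gene lists were chosen with earlier results of these data known. Counts were summed over members per library, filtered with filterByExpr, scaled by TMM and fitted with edgeR 4.0.16 (R 4.3.3), with the label as the single factor. DESeq2 1.42.0 was an alternative. Differences from other populations were tested as an interaction with the library as a block. Shares were compared by an exact permutation test over libraries. CPM are counts per 1000000 of the summed member counts.

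Alveolar macrophages had at least 5 UMIs of Plet1, Ear1 and Slc7a2. Monocytes had at least 3 of Ly6c2 and 2 of Ccr2 and F13a1, with little C1q. T cells had at least 3 Cd3 UMIs. Doublets were marked with Scrublet in scanpy 1.11.5 at 0.8% per 1000 barcodes and kept in the main results. Sub-clusters came from 1500 variable genes, 20 components, 12 neighbours and Leiden resolution 0.8 (leidenalg 0.10.2). The fitting script was tested on simulated data with known changes.

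Named are the 10 smallest p in each direction, the genes of the rule and markers, up to 6 most abundant genes per list and the 5 smallest interaction p per population. Some genes that this rule takes are not reported here. Rsad2, Ifit2, Bst2, Oasl2, Mmp14, Ccl5, Cxcl10, Spp1, Folr2, Stab1, H2-T23, Cd274, Adgre4 and the exceptions of a list were also named after their values were seen. Listed symbols absent from the files under that name were not analysed here. Depth was 17618220 to 19635983 UMIs per library, and member sums were 335058 to 997024 UMIs, so that a gene at 10 UMIs carries a wide counting error. Gene coordinates are from GENCODE on GRCm38 and promoters from RefSeq on GRCm38.p6.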

Additional observations from a re-analysis of the deposited data

Results flagged for a closer look

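In 5 genes the difference between the groups was not the same in the members as in Ly6c2 monocytes, by edgeR's quasi-likelihood test of the difference itself at an adjusted p of 0.05. On the log2 scale the change in members less that in monocytes was 7.41 for Sftpc, 5.77 for Mfap4, -3.85 for Spp1, 9.20 for Fermt2 and 8.48 for Postn. Sftpc rested on 1 member with 2398 UMIs in library 1 labelled PD-L1 KO. Without the members that carried RNA of other lineages the value was 0.97 for Sftpc and 4.86 for Mfap4, and neither passed. Fermt2 was at 40.2, 0, 102 and 0 CPM in members and 60.1, 10.7, 0 and 0 CPM in monocytes, and its value was 0.85 without library 1 labelled PD-L1 KO. Postn was at 35.2, 0, 98.3 and 2.26 CPM in members and at 38.2, 0, 0 and 0 CPM in monocytes, and its value was 3.75 without that library. Spp1 was not called without library 1 labelled WT (-8.06) or without library 2 labelled WT (-3.67). The part of other cells' RNA in the stromal genes was not tested.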

How the results depend on the processing

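The share difference of 1.27 points was 0.859 with a stricter rule, 0.950 thinned, 0.982 without carriers of other lineages, 2.26 with T and B cell transcripts allowed and 0.642 without sub-clusters 4 and 5. As a share of the members plus the C1q macrophages low in Trem2, another base, it was 0.695 points (means of 52.6% and 53.3%). The last 3 settings on kept barcodes were chosen after the data were seen. Genes called in members numbered 32 (13 higher, 19 lower) with no filter on low counts and 0 to 2 with a library left out. With the replicate number as a block, 11 were called (4 higher, 7 lower). Same-numbered libraries correlated at 0.402 in their deviations across 7868 genes, but 2 pairs sharing only a number do not establish a pairing. Every other setting called 0 in members. Interaction calls with a library left out numbered 4 to 159 for C1q macrophages low in Trem2, 0 to 74 for alveolar macrophages and 13 to 137 for monocytes. They were 17 for monocytes with DESeq2 size factors, and 12 (alveolar) and 13 (monocytes) without carriers of other lineages.

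Some log2 differences changed sign. Arg1 was 0.87 thinned and 0.11 with T and B cell transcripts allowed. Under the latter, Cxcl10 was 0.27, Ccl5 0.057 and Spp1 0.26. Spp1 was also 0.28 with the block, 0.78 thinned and 0.057 at the 5% mitochondrial limit, and with a library left out it ran from -1.83 to 2.73 (0.51 without library 1 labelled PD-L1 KO). Fabp5 was -0.27 thinned, Folr2 0.18 with the stricter rule, and Cd274 -0.22 without carriers of other lineages. With a library left out, Cxcl9 ran from -0.18 (without library 2 labelled WT) to 1.92 and Cd274 from -0.23 (without library 1 labelled PD-L1 KO) to 0.63. Likewise the resident macrophage median ran from -1.42 to 0.21 and the heat shock median from -0.96 to 0.044, both positive only without library 2 labelled WT. The cause was not tested. With 226 members and 2 libraries a group, genes under about 10 UMIs per library are poorly measured.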

Other observations

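The 177 barcodes left out of the members for T or B cell transcripts were lowest in Gpnmb and Fabp5 in library 2 labelled WT, as the members were. Their Gpnmb level was 140, 0, 132 and 197 CPM and their Fabp5 level 1961, 54.2, 934 and 2190 CPM. Cxcl9 was at 198, 194, 682 and 461 CPM and Isg15 at 141, 158, 310 and 290 CPM, with both libraries labelled PD-L1 KO above both labelled WT. The interferon-response gene Rsad2 did not follow, at 81.3, 59.1, 30.1 and 89.2 CPM. Cxcl10 was at 77.2, 9.85, 105 and 208 CPM and Ccl5 at 545, 180, 741 and 262 CPM, orders that differ from those in the members. Igkc, an immunoglobulin light chain gene, was at 684, 1312, 707 and 652 CPM in them. Of the 177, 108 had at least 5 Cd3 UMIs and 61 at least 5 Cd79a UMIs. Whether these barcodes hold more than 1 cell was not tested.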
